A study of Caenorhabditis elegans with 6 samples.

Results

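The genes described here encode the subunits of the proteasome of Caenorhabditis elegans. They were taken by name, as every gene whose symbol begins with pas-, pbs-, rpt- or rpn- followed by a number, which gave 32 of the 20661 genes listed in the RNA-seq tables. Of these, 14 encode the 20S core (7 alpha subunits, pas-1 to pas-7, and 7 beta subunits, pbs-1 to pbs-7) and 17 encode the 19S regulatory particle (the 6 ATPases rpt-1 to rpt-6, 3 non-ATPase base subunits and 8 lid subunits). The remaining gene, rpn-6.2, is a paralogue of the lid gene rpn-6.1. All 32 were listed in every library and are protein coding in the WBcel235 annotation, with 10 on chromosome I, 7 on II, 7 on III, 3 on IV and 5 on V.

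RNA was sequenced from mixed-stage worm cultures kept at 20 °C on OP50 bacteria, with 2 libraries for each of 3 strains. WT was the N2 strain. The low insulin/IGF-1 signalling (low IIS) strain, daf-2(-), carried daf-2(e1370), a reduced-function allele of the insulin/IGF-1 receptor. The other mutant strain, daf-16(-);daf-2(-), carried the same receptor allele together with daf-16(mgDf50), a deletion in the FOXO transcription factor gene that low IIS activates, and it is called the double mutant below. The difference between daf-2(-) and WT therefore describes low IIS, and the difference between daf-2(-) and the double mutant describes what depended on daf-16 in worms that all had low IIS. Every library came from whole cultures holding all stages, and in such bulk RNA fewer cells of a type and less RNA per cell cannot be told apart.

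The proteasome degrades proteins that carry ubiquitin chains. The alpha rings of the 20S core form the gated entrance and the beta rings hold the proteolytic sites, which face an inner chamber. The 19S particle sits on the core: its base holds a ring of AAA ATPases that unfold the substrate and thread it inwards, and its lid holds the enzyme that removes the ubiquitin chain. The lid subunit encoded by rpn-6.1 bridges the 19S particle and the 20S core, and in worms without a germline it has been described as a daf-16-dependent factor that raises proteasome activity.

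The levels were given as RPKM, reads scaled to exon length and library size, so that genes of different length can be set side by side. Apart from rpn-6.2, the subunit genes lay between the 88.0 and the 98.2 percentile of all genes in each library. The median subunit gene had 165 and 177 RPKM in the WT libraries, 122 and 116 RPKM in daf-2(-) and 205 and 200 RPKM in the double mutant. The summed RPKM of the 32 genes made up 0.575% and 0.567% of the total RPKM in WT, 0.366% and 0.351% in daf-2(-) and 0.714% and 0.634% in the double mutant. Both shares of daf-2(-) were thus below all 4 shares of the other strains. For 31 of the 32 genes both daf-2(-) libraries lay below all 4 other libraries, the exception being rpn-6.2. The same arrangement was found for 33.9% of all genes.

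**Figure D1:**
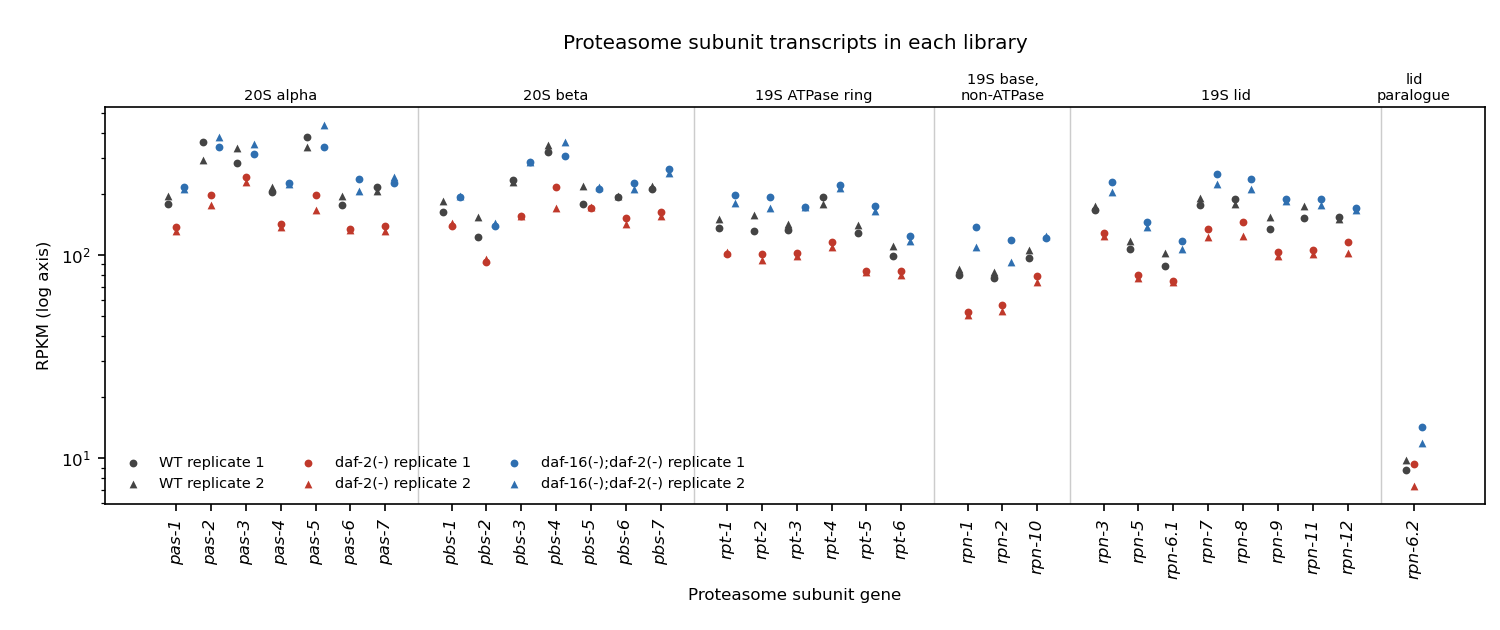
RPKM (log axis) of the 32 proteasome subunit genes in each of the 6 libraries, grouped by subcomplex; circles are replicate 1 and triangles replicate 2. The daf-2(-) libraries (red) lie below the WT and double mutant libraries for 31 genes, and rpn-6.2 lies far below the other genes at 7.31 to 14.2 RPKM.

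The label of the double mutant was checked on daf-16 itself, which had 24.9 and 29.4 RPKM in WT, 25.2 and 22.4 RPKM in daf-2(-) and 6.44 and 4.60 RPKM in the double mutant. The strains also differed in the transcripts of other tissues and stages. Of 12 germline and oocyte genes, all listed, 8 were lower in daf-2(-) than in WT and 12 were lower than in the double mutant. Over all genes, 17.5% and 26.1% were lower at an adjusted p of at most 0.05. The summed level of the 12 genes was 1034 and 1048 RPKM in WT, 466 and 368 RPKM in daf-2(-) and 2290 and 1637 RPKM in the double mutant. Of 8 embryo genes, 7 were listed, and their sum was 257 and 370 RPKM in WT, 143 and 138 RPKM in daf-2(-) and 552 and 535 RPKM in the double mutant. Most of that sum was pos-1, which fell in both comparisons of daf-2(-) together with pie-1, while elt-7 rose in both (0.63 and 0.59). The list had medians of -0.14 and -0.0059 in these comparisons, the second being the value of end-1. The genes end-1, end-3 and med-1 had at most 0.44 RPKM in any library, where fold changes on the log2(RPKM + 1) scale stay near 0. The sums of the germline list were ordered among the strains as the proteasome genes were, and the part of germline and embryo content in the results on the proteasome was not tested. The sums of 12 sperm genes were 258 and 305 RPKM in WT, 491 and 385 RPKM in daf-2(-) and 339 and 422 RPKM in the double mutant. In daf-2(-) against WT, 10 of the 12 were positive and 3 rose, beside 8.26% of all genes. Against the double mutant 6 were positive and 6 negative, and none passed. The sums of 5 listed yolk genes ran from 9169 to 20962 RPKM with both extremes in WT. Those of 9 moulting and cuticle genes ran from 860 to 3579 RPKM. The highest sums of this last list, in daf-2(-), were mostly the cuticle collagen gene col-19 with 3321 and 3436 RPKM. They are therefore no measure of moulting. Of the 9 genes, 8 had negative log2 fold changes against WT and 5 of them fell (median of the list -1.44). Against the double mutant 5 also fell (median -1.12).

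In daf-2(-) against WT, all 32 subunit genes had negative log2 fold changes. Of these, 23 fell at an adjusted p of at most 0.05 and none rose, beside 17.5% of all genes that fell and 8.26% that rose. The median log2 fold change of the 32 genes was -0.49, and that of the 14395 genes with a mean of at least 1 RPKM was -0.28. The 1291 genes whose mean level lay within the range of the subunit genes other than rpn-6.2 had a median of -0.09. Of these 1291 genes, 312 fell and 248 rose. No subunit gene reached a fold change of 2 downwards at an unadjusted p of at most 0.05, beside 7.77% of all genes. How many genes passed depended on how the libraries were scaled to each other. When the 6 libraries were scaled by median ratios, which moved the median of the genes with at least 1 RPKM to -0.017, the median of the subunit genes became -0.19, 29 were negative and 2 fell (pas-5 and pbs-4), beside 10.5% of all genes that fell and 14% that rose. The genes of the same level range had a median of 0.21 on that scale. With quantile normalization 19 subunit genes fell, with a median of -0.52, beside 12.1% of all genes. No subunit gene passed when any 1 of the WT or daf-2(-) libraries was left out, but the calls over all genes went down as well: from 5328 to 0 without either WT library, to 1684 without replicate 1 of daf-2(-) and to 129 without its replicate 2. At an unadjusted p of at most 0.05, 23 to 30 subunit genes were lower in each of those fits, beside 16.1% to 25.0% of all genes. Without either double mutant library, which only enters the estimate of the spread, 7 subunit genes passed, and 1463 and 1477 of all genes did.

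The largest decrease of the 32 genes against WT was that of the alpha gene pas-5. The RPKM of pas-5 was 383 and 341 in WT, 197 and 167 in daf-2(-) and 339 and 436 in the double mutant. The daf-2(-) values were far below all others, and the log2 fold change was -0.99 (SE 0.17, adjusted p = 0.0117) against WT and -1.08 (SE 0.17, adjusted p = 0.00393) against the double mutant. It passed against both strains on the median-ratio scale as well, at -0.69 and -0.65. The smallest difference among the alpha genes was that of pas-3, with 284 and 338 RPKM in WT, 243 and 229 RPKM in daf-2(-) and 316 and 352 RPKM in the double mutant. It differed by -0.39 (SE 0.14, adjusted p = 0.0874) against WT, which did not pass, and -0.50 (adjusted p = 0.0346) against the double mutant. The other alpha genes, pas-1, pas-2, pas-4, pas-6 and pas-7, fell in daf-2(-) against WT by 0.47 to 0.80 on the log2 scale, and pas-2 fell the most of these. The order of the levels differed between the strains at the top of the complex. In WT pas-5 had the highest mean of all 32 genes and pas-3 was number 4, whereas in daf-2(-) pas-3 was the highest and pas-5 was number 4. In the double mutant pas-5 was again the highest and pas-3 again number 4. These ranks are of strain means and did not hold in every library. In replicate 2 of WT pbs-4 stood above pas-5 (348.2 and 340.6 RPKM). In replicate 1 of the double mutant pas-2 did (339.6 and 338.9 RPKM). The median of the 7 alpha genes was -0.59 against WT, where 6 fell, and -0.72 against the double mutant, where all 7 fell.

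Among the beta subunits, pbs-1, pbs-2 and pbs-5 carry the proteolytic sites with caspase-like, trypsin-like and chymotrypsin-like activity. The RPKM of pbs-5 was 179 and 217 in WT, 171 and 172 in daf-2(-) and 212 and 215 in the double mutant. The lower WT library was close to the daf-2(-) libraries, and WT and the double mutant overlapped. This gene had the smallest decrease of the 20S core in both comparisons, at -0.20 (SE 0.14, adjusted p = 0.342) against WT and -0.31 (SE 0.14, adjusted p = 0.13) against the double mutant, and neither passed. With median-ratio scaling both values turned positive, at 0.10 and 0.11. The RPKM of pbs-1 was 163 and 184 in WT, 139 and 144 in daf-2(-) and 193 and 196 in the double mutant. It differed by -0.29 (SE 0.13, adjusted p = 0.138) against WT and -0.46 (SE 0.13, adjusted p = 0.0293) against the double mutant, and with median-ratio scaling the value against WT was 0.011. The RPKM of pbs-2 was 122 and 154 in WT, 92.8 and 95.7 in daf-2(-) and 138 and 144 in the double mutant. Both daf-2(-) libraries lay below the other 4, while the WT libraries, which differed more than for any other subunit gene, spanned those of the double mutant. The gene pbs-2 fell against WT (-0.54, adjusted p = 0.0395) and against the double mutant (-0.58, adjusted p = 0.0224). Of the catalytic genes, then, only pbs-2 passed in both comparisons on the deposited scale, and none passed with median-ratio scaling.

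The other beta genes are structural. The RPKM of pbs-4 was 323 and 348 in WT, 215 and 170 in daf-2(-) and 308 and 360 in the double mutant, and it had the largest decrease of the beta genes against WT (-0.81, SE 0.16, adjusted p = 0.0169). The daf-2(-) libraries differed more for pbs-4 than for any other subunit gene. The largest decrease of a beta gene against the double mutant was that of pbs-3, at -0.88 (SE 0.12, adjusted p = 0.00243), with replicates that hardly differed: 234 and 228 RPKM in WT, 156 and 156 RPKM in daf-2(-) and 288 and 288 RPKM in the double mutant. Of the others, pbs-7 fell in both comparisons (-0.43 and -0.70), and pbs-6 fell against the double mutant (-0.57) but missed the threshold against WT (-0.40, adjusted p = 0.0516). The median of the 7 beta genes was -0.43 against WT, where 4 fell, and -0.58 against the double mutant, where 6 fell. The annotation places exons of another gene over 9.11% of pbs-4 on the opposite strand and over 7.97% of pbs-7 on the same strand, and the tables do not separate strands.

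In the ATPase ring, rpt-4 had 194 and 179 RPKM in WT, 116 and 109 RPKM in daf-2(-) and 222 and 213 RPKM in the double mutant. The 3 strains did not overlap, and rpt-4 had the largest decrease of the ring against WT (-0.72, SE 0.12, adjusted p = 0.0114). The largest decrease against the double mutant was that of rpt-5, at -1.02 (SE 0.13, adjusted p = 0.00207), from 128 and 141 RPKM in WT and 175 and 164 RPKM in the double mutant to 83.8 and 82.6 RPKM in daf-2(-). The least affected gene of the ring was rpt-6, with 98.4 and 110 RPKM in WT, 83.9 and 80.2 RPKM in daf-2(-) and 123 and 117 RPKM in the double mutant. It did not pass against WT (-0.34, adjusted p = 0.0937) and fell against the double mutant (-0.55, adjusted p = 0.016). The genes rpt-1, rpt-2 and rpt-3 fell in both comparisons, by 0.45 to 0.55 against WT and by 0.77 to 0.89 against the double mutant. The ring as a whole had a median of -0.51 against WT, where 5 of 6 fell, and -0.88 against the double mutant, where all 6 fell.

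The non-ATPase part of the base has the large scaffold subunits encoded by rpn-1, which also docks shuttle factors that bring ubiquitinated proteins, and rpn-2, and the ubiquitin receptor encoded by rpn-10. The RPKM of rpn-1 was 79.6 and 85.7 in WT, 52.4 and 50.9 in daf-2(-) and 138 and 109 in the double mutant. The strains did not overlap, and rpn-1 had the largest decrease of all 32 genes against the double mutant (-1.23, SE 0.15, adjusted p = 0.00207). Against WT it fell by 0.67 on the log2 scale (adjusted p = 0.0226). The RPKM of rpn-2 was 76.9 and 82.7 in WT, 56.6 and 53.0 in daf-2(-) and 118 and 92.6 in the double mutant, with log2 fold changes of -0.53 (adjusted p = 0.0471) and -0.92 (adjusted p = 0.00482). The RPKM of rpn-10 was 96.8 and 105 in WT, 78.9 and 74.1 in daf-2(-) and 121 and 124 in the double mutant. It had the smallest decrease of the base and missed the threshold against WT (-0.40, adjusted p = 0.0577), while it fell against the double mutant (-0.67, adjusted p = 0.00668). The gene for the other ubiquitin receptor of the base, rpn-13, was not among the 32 genes found by name and was therefore not analysed here.

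In the lid, the RPKM of rpn-11, which encodes the deubiquitinating metalloprotease, was 152 and 175 in WT, 106 and 101 in daf-2(-) and 188 and 177 in the double mutant. It had the largest decrease of the lid against WT (-0.65, SE 0.13, adjusted p = 0.0166) and fell against the double mutant (-0.81, adjusted p = 0.00411). The largest decrease of the lid against the double mutant was that of rpn-9, at -0.87 (SE 0.13, adjusted p = 0.00312), from 188 and 185 RPKM to 103 and 98.7 RPKM. The genes rpn-3, rpn-5, rpn-7, rpn-9 and rpn-12 fell in both comparisons. The partner of rpn-11 in the lid, rpn-8, fell against the double mutant (-0.72, adjusted p = 0.00765) but missed the threshold against WT (-0.44, adjusted p = 0.0585). The lid median was -0.49 against WT, where 6 of 8 fell, and -0.79 against the double mutant, where all 8 fell. The annotation places exons of other genes on the opposite strand over 20.7% of rpn-7 and 10.6% of rpn-9.

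The RPKM of rpn-6.1 was 88.1 and 103 in WT, 74.8 and 73.5 in daf-2(-) and 117 and 107 in the double mutant. Both daf-2(-) libraries were the lowest and both double mutant libraries the highest of the 6. The gene had the smallest decrease of the lid in both comparisons: its log2 fold change was -0.36 (SE 0.14, adjusted p = 0.0987) against WT, which did not pass, and -0.59 (SE 0.14, adjusted p = 0.0153) against the double mutant. On the median-ratio scale these were -0.06 (SE 0.15) and -0.16 (SE 0.15), and neither passed. Its paralogue rpn-6.2 had 8.78 and 9.76 RPKM in WT, 9.40 and 7.31 RPKM in daf-2(-) and 14.2 and 11.9 RPKM in the double mutant. The libraries of daf-2(-) and WT overlapped, and rpn-6.2 did not pass against WT (-0.14, SE 0.21, adjusted p = 0.66) or against the double mutant (-0.59, SE 0.21, adjusted p = 0.071). The level of rpn-6.1 was 7.95 to 10.5 times that of rpn-6.2 over the 6 libraries.

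Against the double mutant, 30 of the 32 genes fell in daf-2(-) and none rose, beside 26.1% of all genes that fell and 9.82% that rose. The exceptions were pbs-5 and rpn-6.2. The median log2 fold change of the 32 genes was -0.77, and that of the genes with at least 1 RPKM was -0.34. Of the 1291 genes in the level range of the subunit genes other than rpn-6.2, 402 fell and 322 rose. Only rpn-1, pas-5 and rpt-5 reached a fold change of 2 at an unadjusted p of at most 0.05, beside 15.8% of all genes that did so downwards. With median-ratio scaling, which moved the median of the genes with at least 1 RPKM to 0.021, 31 genes were negative and 7 fell (rpn-1, pas-5, rpt-5, pas-2, rpt-4, pbs-3 and rpn-9), with a median of -0.35 over the 32 genes, beside 16.7% of all genes that fell and 17.5% that rose. With quantile normalization 31 fell, beside 17.9% of all genes. Leaving out replicate 2 of daf-2(-) gave a count of 4 subunit genes, where the calls over all genes went from 7423 to 1661, and leaving out replicate 1 of the double mutant gave 15, where they went to 2042. The daf-2(-) libraries enter both comparisons, so their values stand side by side and are not independent.

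**Figure D2:**
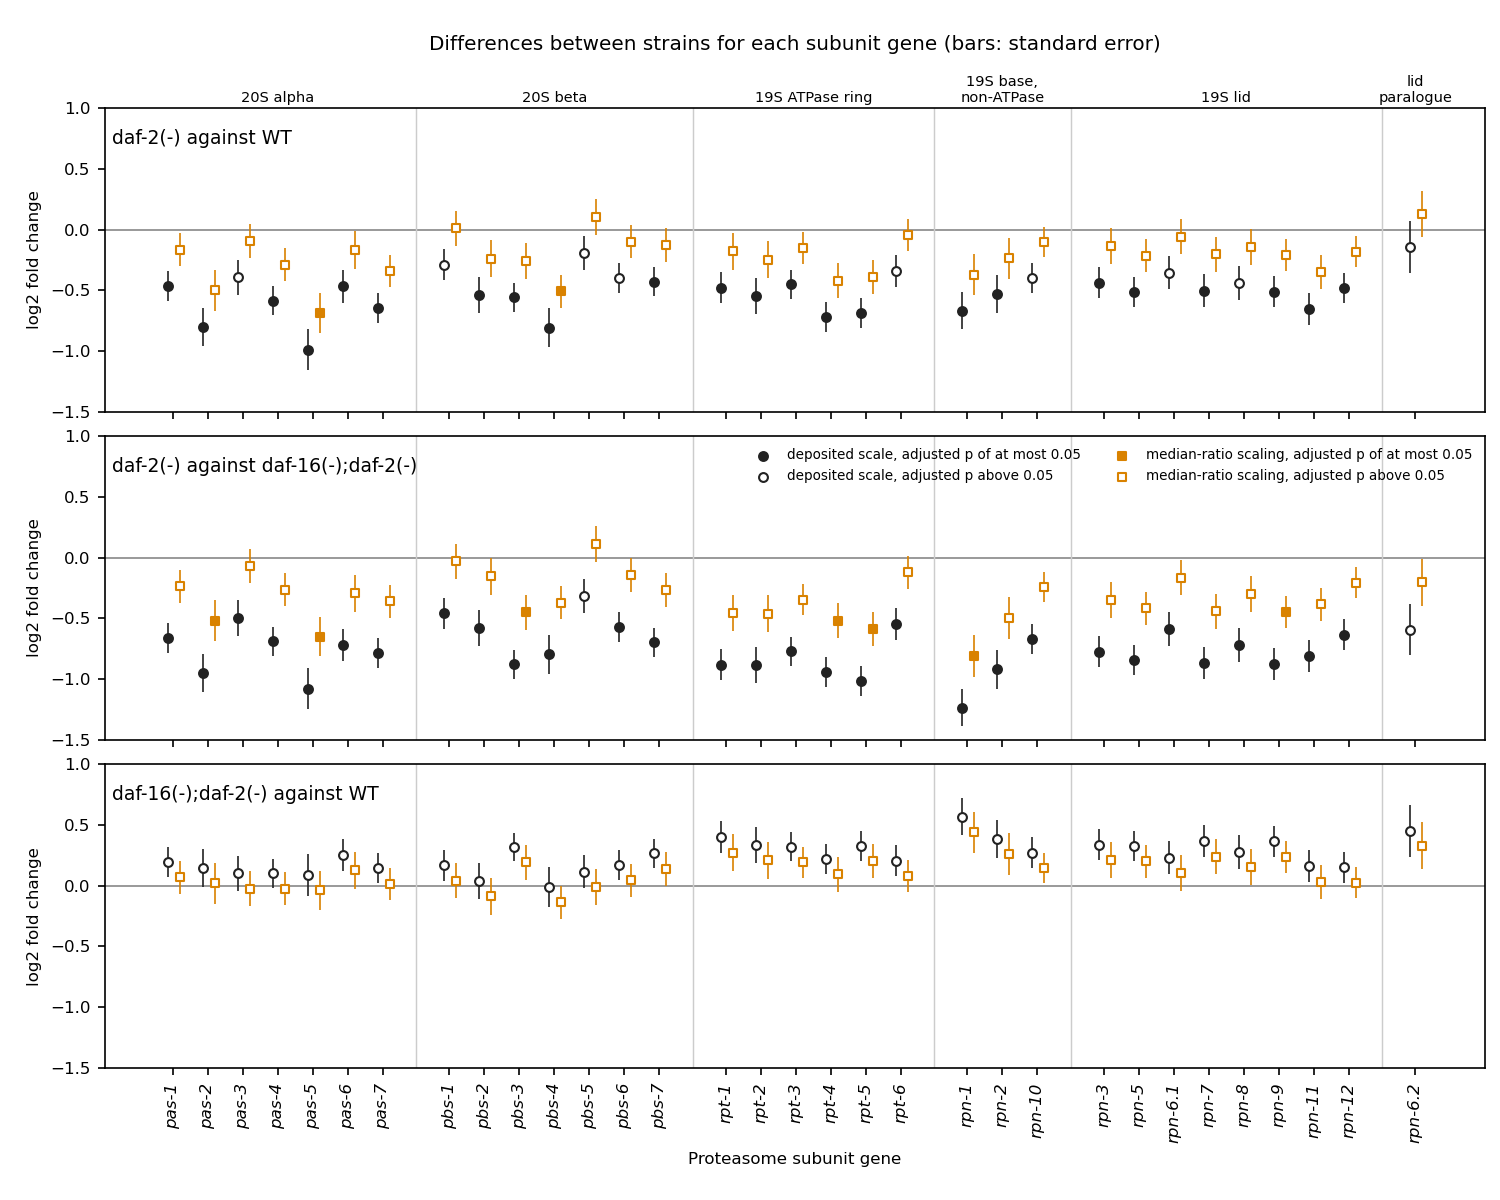
Log2 fold changes of the 32 subunit genes, on the log2(RPKM + 1) scale with bars of 1 standard error, in daf-2(-) against WT, daf-2(-) against the double mutant and the double mutant against WT; black symbols are the deposited scale, orange squares median-ratio scaling, and filled symbols have an adjusted p of at most 0.05. On the deposited scale 23, 30 and 0 genes are filled, and with median-ratio scaling 2, 7 and 0.

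Between the double mutant and WT no subunit gene passed, where 0.116% of all genes rose and 0.0387% fell by limma. The smallest adjusted p was 0.183, that of rpn-1 (log2 fold change 0.57, SE 0.15). At an unadjusted p of at most 0.05, 10 subunit genes were higher in the double mutant and none lower, beside 14.9% of all genes that were higher and 4.33% that were lower at that p. Of the 10, 9 were among the 17 genes of the 19S particle (rpt-1, rpt-3, rpt-5, rpn-1, rpn-2, rpn-3, rpn-5, rpn-7 and rpn-9) and 1 among the 14 of the 20S core (pbs-3). The log2 fold changes were positive for 31 genes, with a median of 0.24 over all 32, 0.15 over the core and 0.33 over the 19S particle, and the only negative value was that of pbs-4 (-0.0097). With median-ratio scaling 26 were positive, with a median of 0.12.

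The balance of the subcomplexes was followed within each library. It was taken as the log2 level relative to the median of the 14 core genes of that library. A single scaling factor per library hardly changes this measure, whereas quantile normalization changes the levels within a library. The ATPase ring stood at -0.60 ± 0.06 (SD, n = 2) in WT, -0.61 ± 0.02 in daf-2(-), against -0.39 ± 0.08 in the double mutant. The non-ATPase base stood at -1.35 ± 0.03 in WT and -1.45 ± 0.04 in daf-2(-), against -1.01 ± 0.10 in the double mutant. The lid stood at -0.42 ± 0.03 in WT and -0.51 ± 0.06 in daf-2(-), against -0.33 ± 0.05 in the double mutant. On the deposited scale, the ring and the base were thus highest relative to the core in the double mutant. Neither overlapped with either other strain. The lid was separate only with rpn-6.1 included, since without it the lid stood at -0.43 and -0.31 in the WT libraries and -0.30 and -0.33 in the double mutant. In daf-2(-) against the double mutant, the median log2 fold changes of base, ring and core were -0.92, -0.88 and -0.69 as deposited. With quantile normalization they were -0.72, -0.89 and -0.79, so the base no longer fell more than the core. In daf-2(-) and WT the ring differed by less than the spread of the replicates, and with the core taken as a mean in place of a median the difference between these strains changed from -0.012 to 0.050. Within the core, the alpha genes stood at 0.03 ± 0.05 in WT, -0.12 ± 0.01 under low IIS and 0.04 ± 0.02 without daf-16, and the beta genes at -0.05 ± 0.08, 0.04 ± 0.02 and -0.07 ± 0.05.

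Relative to the core, rpn-6.1 stood at -1.15 ± 0.11 (SD, n = 2) in WT, -1.02 ± 0.01 in daf-2(-), and -1.05 ± 0.09 when daf-16 was also lost. The double mutant overlapped both other strains, and both daf-2(-) libraries stood above both WT libraries. Its RPKM was 42.5% and 47.4% of the core median in WT, 48.6% and 49.0% in daf-2(-) and 50.5% and 46.0% in the double mutant. When all genes were tested after scaling each library to its core median, a choice made after seeing the data, rpn-6.1 differed by 0.12 (SE 0.12, adjusted p = 0.523) between daf-2(-) and WT and by 0.017 (SE 0.12, adjusted p = 0.94) between daf-2(-) and the double mutant. This scale centres the members by construction, as 14 of the 32 define it. No subunit gene passed on it in daf-2(-) against WT, beside 4.58% of all genes that fell and 17.1% that rose, and at an unadjusted p of at most 0.05 only pas-5 was lower (-0.51, SE 0.17, adjusted p = 0.0803). Against the double mutant rpn-1 (-0.63, SE 0.14, adjusted p = 0.0179) and rpt-5 (-0.41, SE 0.11, adjusted p = 0.0335) fell relative to the core, beside 11.8% of all genes that fell. The catalytic gene pbs-5 had the largest positive differences of a core gene relative to the core, 0.28 (SE 0.12, adjusted p = 0.156) and 0.30 (SE 0.12, adjusted p = 0.119), and neither passed.

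**Figure D3:**
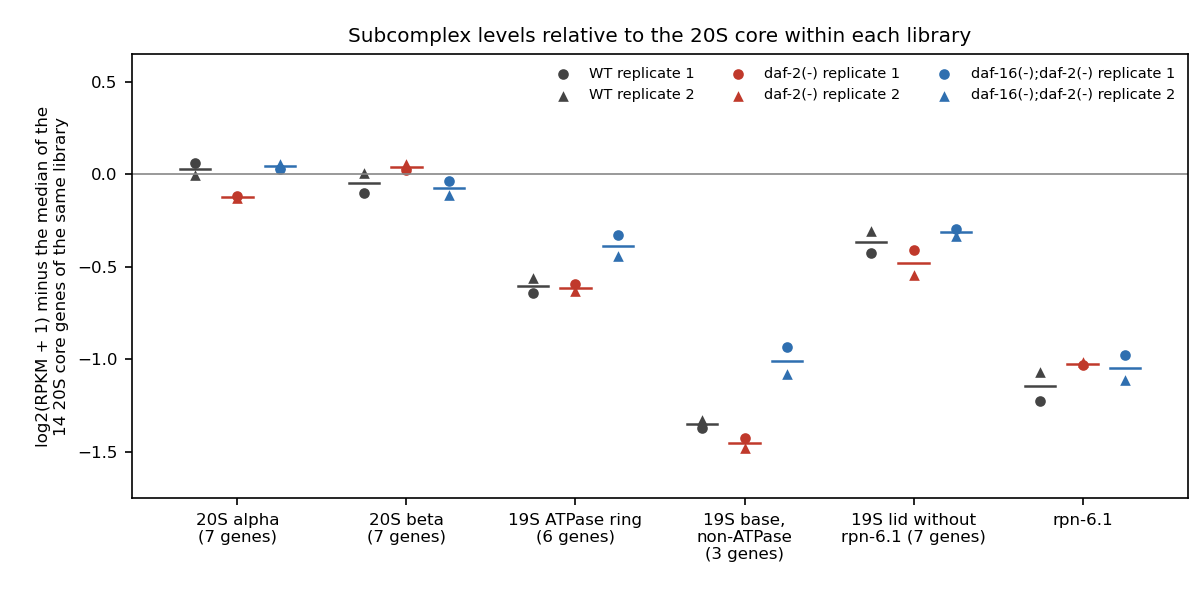
Median log2(RPKM + 1) of each subcomplex, and of rpn-6.1, minus the median of the 14 core genes of the same library; circles and triangles are the replicates and bars their means. The ATPase ring and the base are highest in the double mutant (-0.39 and -1.01), while rpn-6.1 stands between -1.22 and -0.98 in all libraries, with the double mutant overlapping both other strains.

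The genes of the 19S particle also have longer transcripts. In the WBcel235 annotation the exons of the core genes span 801 to 1059 bases, with a median of 881, and those of the 19S genes 855 to 3171 bases, with a median of 1474. Across the 31 subunit genes without rpn-6.2, the difference between the double mutant and WT followed exon length with a Spearman coefficient of 0.75, and the difference between the 2 replicates of the double mutant did so with 0.74. These genes share the same libraries and are not independent, and the values are given as a description. The coefficient was 0.06 for daf-2(-) against WT, -0.33 for daf-2(-) against the double mutant, -0.26 between the WT replicates and -0.16 between the daf-2(-) replicates. The longest genes, rpn-1 and rpn-2, were higher by 0.33 and 0.35 on the log2 scale in replicate 1 of the double mutant than in replicate 2, while pas-5, with 855 bases, differed by -0.36. In the double mutant, subcomplex and exon length cannot be told apart.

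**Figure D4:**
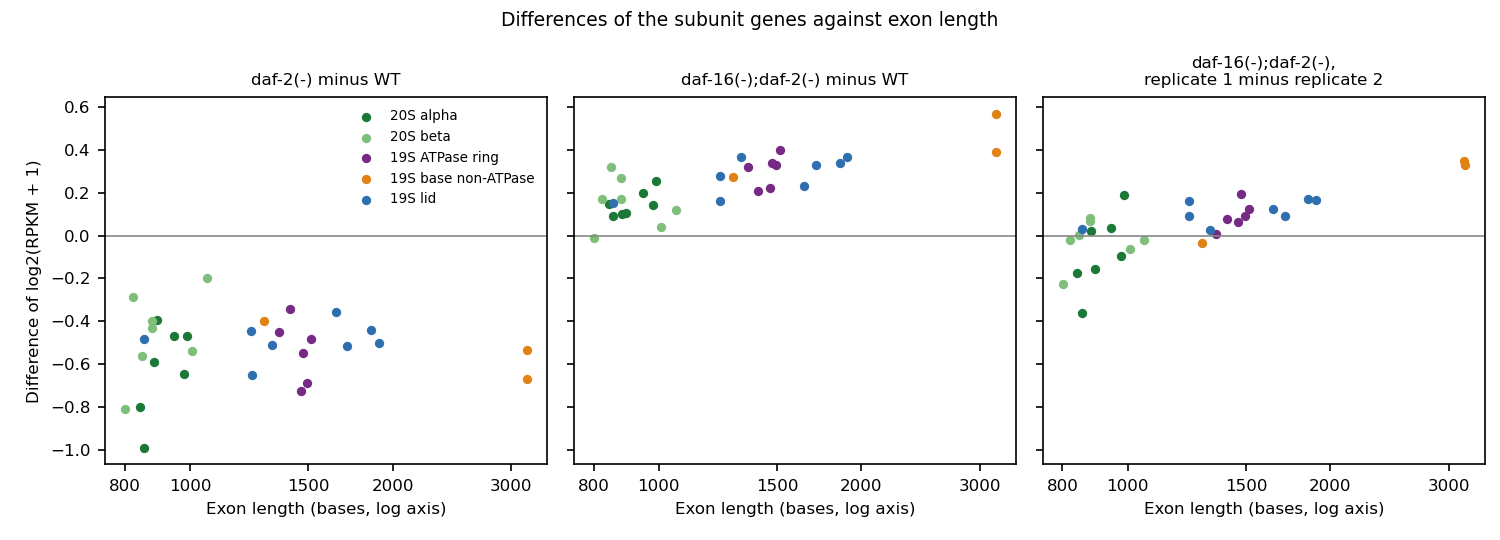
Difference of log2(RPKM + 1) against exon length in bases (log axis) for the 31 subunit genes without rpn-6.2, coloured by subcomplex, for daf-2(-) minus WT, the double mutant minus WT, and replicate 1 minus replicate 2 of the double mutant. The differences that involve the double mutant rise with length (Spearman 0.75 and 0.74), and that of daf-2(-) minus WT does not (0.06).

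The order of the subunit levels was alike in the strains, with Spearman coefficients of 0.93 to 0.97 across the 32 genes. The highest level was 4.98 and 4.21 times the lowest among the 31 genes without rpn-6.2 in the WT libraries, 4.64 and 4.50 times in daf-2(-) and 2.91 and 4.71 times in the double mutant. By strain mean, the lowest of these 31 genes was rpn-2 in WT and in the double mutant and rpn-1 in daf-2(-). In replicate 1 of the double mutant rpn-6.1 was lower than rpn-2 (116.9 and 118.0 RPKM). The means of rpn-1 and rpn-2 lay close together, at 82.6 and 79.8 RPKM in WT and 51.6 and 54.8 RPKM in daf-2(-). Replicates of a strain differed by a median of 0.14, 0.07 and 0.09 on the log2 scale over the 32 genes in WT, daf-2(-) and the double mutant.

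Other genes that act with the proteasome were followed as lists. The CCT chaperonin, a folding complex of 8 subunits that is also made in fixed proportions, fell in full: all 8 genes fell in daf-2(-) against WT (median -0.58) and against the double mutant (median -0.77). On the median-ratio scale none and 1 of these passed, which was not above the shares over all genes. Of the proteasome-bound factors, ubh-4, the gene of a deubiquitinase that binds the 19S particle, had a mean of 51.6 RPKM in daf-2(-), 90.0 RPKM in WT and 108 RPKM in the double mutant. It fell against both strains (-0.79 with adjusted p = 0.0105 and -1.05 with adjusted p = 0.00212), also with median-ratio scaling (-0.50 and -0.62). The deubiquitinase gene usp-14 fell in both comparisons (-0.62 and -1.01), and dss-1, the gene of a small lid partner, passed in neither (-0.11 and -0.25), so that 2 of the 3 listed genes of this list fell. On the median-ratio scale usp-14 did not pass against WT (-0.33, adjusted p = 0.145) and fell against the double mutant (-0.58). Of 9 listed genes for shuttle factors and the CDC-48 segregase, which extracts ubiquitinated proteins from complexes, 5 fell against WT (rad-23, cdc-48.1, cdc-48.2, npl-4.1 and ufd-2, by 0.49 to 0.63) and 8 against the double mutant. None of the 5 passed against WT on the median-ratio scale, and of the 8 only cdc-48.1 and ufd-2 did against the double mutant. Of 6 genes for ubiquitin and its activation, ubc-18 fell against WT and uba-1, ubc-3 and ubc-18 against the double mutant. The count of 1 in 6 against WT was close to the share over all genes. The medians of these 6 genes were -0.19 and -0.42, beside -0.28 and -0.34 for the genes with at least 1 RPKM. The transcription factor gene skn-1, which in worms raises proteasome genes when the proteasome is impaired, had a mean of 65.0 RPKM in daf-2(-), 55.9 RPKM in WT and 71.5 RPKM in the double mutant and passed in neither comparison (0.21 and -0.12). Of the 5 listed genes of its processing pathway, itself included, none fell against WT and 2 fell against the double mutant (sel-1 and sel-11). Of the calls on ubc-18, uba-1, ubc-3, sel-1 and sel-11, only that on ubc-18 against the double mutant was also made with median-ratio scaling. No listed gene of these 5 lists rose in either comparison.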

How the data were processed

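The deposited tables held RPKM per gene, which the authors made by trimming adaptors, aligning Illumina reads to the WS230 genome in CLC Genomics Workbench and scaling read numbers to exon length and mapped reads. The submitters' processing notes also name CASAVA 1.8.2. Libraries were made with a TruSeq kit, and strand use is not given in the sources used here. In the daf-2(-) table, large values carried commas, which were removed, and this deposited column was entered as another unit for that reason alone. The 3 tables were joined by gene name. Of 20661 genes, 2499 were missing from at least 1 table and set to 0 there, and 6 names on more than 1 line were left out. No value column was left unmapped.

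Differences were tested on log2(RPKM + 1) with limma 3.58.1 in R 4.3.3, in 1 fit over the 6 libraries with a trend on mean level and Benjamini-Hochberg adjustment over all 20661 genes. A gene was said to fall or rise at an adjusted p of at most 0.05. Fold changes on this scale understate the change of low genes. The study's criteria, a fold change of at least 2 together with an unadjusted p within 0.05, were an alternative, and its count-based test could not be run on RPKM. Read depth is not part of the tables, and low values did not resolve into whole reads (51.9 to 60.3% lay within 0.2 of a whole number), so no counting error is given. The labels do not say whether replicates were separate cultures, and p-values then measure only the spread between these samples, which may be technical.

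Named in full were rpn-6.1, rpn-6.2, the catalytic pbs-1, pbs-2 and pbs-5, and in each subcomplex the genes with the largest and the smallest fold change of daf-2(-) against WT and against the double mutant. Other members are named where they were called, missed the threshold narrowly or bear on exon length. The members, lists and tests were chosen with earlier results of these data known. Lengths and overlaps of exons were read from the WBcel235 annotation, which is not the build of the files, so no coordinates are given. Promoter motifs were not analysed here.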

Additional observations from a re-analysis of the deposited data

How the results depend on the processing

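Pseudocounts of 0.1 and 0.5 RPKM, filters on low values and limma without a trend left the counts of subunit genes that fell within 1.5 times of 23 and 30 and kept the direction of each of the 32 genes in both comparisons of daf-2(-). Scaling mattered most. With median-ratio scaling the counts were 2 and 7 and the median log2 fold changes -0.19 against WT, -0.35 against the double mutant and 0.12 for the double mutant against WT. Against WT pbs-1 (0.011), pbs-5 (0.10) and rpn-6.2 (0.13) turned positive on that scale, as did pbs-5 (0.11) against the double mutant, and pbs-2 (-0.085) and pbs-5 (-0.010) turned negative in the double mutant against WT. With quantile normalization rpn-6.2 turned positive in daf-2(-) against WT (0.10) and pbs-4 in the double mutant against WT (0.0087). The study's fold criterion gave 0 and 3. A separate fit of daf-2(-) and WT gave 7, beside 3.61% of all genes that fell in that fit and 17.5% in the main fit. The cause of these changes was not tested. Scaling to the core median, chosen after seeing the data, centres the members by construction, as 14 of the 32 define it: the counts were 0 and 2 and the medians -0.015, -0.165 and 0.113.

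With 1 library left out, 0 to 7 genes fell against WT and 4 to 30 against the double mutant, with medians of -0.55 to -0.42, -0.82 to -0.72 and 0.21 to 0.29 in the 3 comparisons. The log2 fold change of rpn-6.2 against WT then ran from -0.30 to 0.020, and in the double mutant against WT that of pbs-2 ran from -0.12 to 0.21, that of pbs-4 from -0.12 to 0.10 and that of pbs-5 from -0.024 to 0.26. These fits assume that a lone library varies like the other groups.

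With the replicate number as a replicate block, 15 genes fell against WT and 30 against the double mutant, beside 15.8% and 25.2% of all genes. The numbers share no stated origin, and replicate deviations correlated by 0.11, 0.16 and -0.16 between the strains. With the numbers of the double mutant crossed, chosen after seeing the data, the counts were 12 and 28. With the core as a mean of its genes, the difference of daf-2(-) from WT was 0.050 for the ATPase ring and -0.035 for the lid, and that from the double mutant was -0.15 for the ring, -0.10 for the lid and -0.36 for the base.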
